A study of Mus musculus with 11 samples.

Results

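Type 2 molecular layer interneurons are small GABAergic neurons of the cerebellar cortex. A nucleus was placed in this group when its barcode held at least 500 genes and less than 5% mitochondrial counts, at least 1 unique molecular identifier (UMI, a counted RNA molecule) of Gad1 or Gad2, at least 1 of Tfap2b, and at least 2 of Nxph1 with more Nxph1 than Sorcs3. It also held no UMI of the Golgi cell genes Lgi2 and Slc6a5, at most 1 of the myelin genes Mog and Mag, and less than 0.2% of its UMIs from the granule cell genes Gabra6, Fat2, Chn2 and Etv1. Of 189709 barcodes in 11 samples, 970 met this rule, which was 0.519% of the 186863 barcodes that passed the quality limits. The same rule with Sorcs3 and Nxph1 exchanged gave 2958 type 1 nuclei, which served for comparison.

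The samples were single-nucleus RNA libraries from pooled cerebellum, brainstem of 1 hemisphere and upper cervical cord of male mice aged 8 to 12 weeks, with nuclei sorted by their DNA stain. All mice carried loxP sites in both copies of Il12rb2, a receptor chain through which cells sense interleukin-12 (the genotype Il12rb2fl/fl). The NestinCre/+Il12rb2fl/fl littermates also carried a Cre transgene driven by Nestin regulatory sequence, expressed by the cells that give rise to neurons and most glia but not microglia, so that type 2 interneurons were not the sole target. Experimental autoimmune encephalomyelitis (EAE) was induced with a myelin peptide in complete Freund's adjuvant and pertussis toxin and was sampled at day 10, and naive mice were not immunized. There were 4 Il12rb2fl/fl EAE samples (fl EAE), 4 NestinCre/+Il12rb2fl/fl EAE samples (NestinCre EAE), 2 naive Il12rb2fl/fl samples (fl naive) and 1 naive NestinCre/+Il12rb2fl/fl sample (NestinCre naive). The libraries came from 3 sequencing runs, whose numbers are those of the labels and not the order in time. Run 1 contained EAE samples alone (replicates 1 to 3 of each genotype), run 2 contained replicate 4 of each genotype with fl naive 2, and run 3 contained naive samples alone (fl naive 3 and NestinCre naive 2). By the study's description each EAE sample was a separate mouse, the naive samples of run 3 were a mouse of each genotype, and fl naive 2 was an internal control between runs. The p-values measure the spread between these samples.

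Interneurons of the molecular layer receive excitation from parallel fibres and release GABA. Type 1 cells, which are coupled by gap junctions of connexin 36 (Gjd2), inhibit Purkinje cells, the output neurons of the cortex, whereas type 2 cells act largely on type 1 cells. Both types arise from Tfap2b-expressing GABAergic progenitors and carry the receptor tyrosine kinase Kit. Type 2 cells are known for Nxph1, a secreted ligand of neurexins, and for the cadherin Cdh22.

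The 4 fl EAE samples held 85, 82, 76 and 108 type 2 nuclei and the 4 NestinCre EAE samples held 68, 78, 59 and 145. There were 102 and 104 in fl naive 2 and 3 and 63 in NestinCre naive 2. A type 2 nucleus held a median of 4882.5 UMIs and 2422 genes, against 2456 UMIs in all passing barcodes. The summed UMIs per sample ran from 332185 to 885148, so that 3 UMIs corresponded to 3.39 to 9.03 counts per 1000000 UMIs. No barcode was shared between type 2 nuclei of different libraries. Where 4 values of a group are given, they stand in the order of replicates 1 to 4. The ± of a log2 value is a standard error worked back from the edgeR test. The ± of a mean level or share is the SD between samples. Levels are counts per 1000000 UMIs (CPM) of the type 2 nuclei of a sample, and lower levels of a gene per nucleus cannot be told apart from fewer nuclei that carry it.

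Il12rb2 (chr6:67268302-67353172, GRCm39), the gene that Cre targets, was near the limit of detection in type 2 nuclei. It gave 3, 4, 6 and 7 UMIs in fl EAE, 12, 6, 4 and 10 in NestinCre EAE, 6 and 11 in fl naive 2 and 3, and 0 in NestinCre naive 2, where 0 of 419678 UMIs allows up to 7.15 CPM. In CPM the fl EAE values were 7.53, 10.7, 13.1 and 9.29 and the NestinCre EAE values 32.4, 17.4, 12.0 and 11.3. The groups overlapped, and the gene was below the expression filter of the genotype test in EAE. In the fit with the naive samples its log2 difference was -6.19 ± 2.01 between the genotypes in naive mice, 6.21 ± 2.33 between EAE and naive in NestinCre mice and 6.96 ± 2.02 for the interaction, with edgeR adjusted p of 0.998, 1.00 and 1.00. These fitted values rest on the 0 UMIs of NestinCre naive 2 and are no bounds. In all, 60 of 970 nuclei (6.19%) held a UMI. The gene counts do not separate the part between the loxP sites, so that they do not show whether the deletion took place. Il12rb1, the other receptor chain, gave 3 UMIs over all samples, and Nes, whose promoter drives Cre, gave 0.

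Nxph1 (chr6:8948431-9249616) chose the nuclei, and its values are a description. Its median was 21 UMIs per nucleus, with quartiles of 12 and 35 and a maximum of 161. At the edge of the rule, 18 nuclei held exactly 2 Nxph1 UMIs and were kept, and 12 nuclei with 1 UMI were left out. No Sorcs3 UMI was found in 839 of the 970 nuclei, 62 held 1 and 69 held 2 or more. A further 41 nuclei missed the rule only by a granule gene share of 0.2 to 0.3%, and 229 missed it only by 1 UMI of Lgi2 or Slc6a5. Summed over samples, Nxph1 reached 4670 CPM in type 2 nuclei, 47.3 in type 1 nuclei and 327 in the other passing barcodes.

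Markers that the rule did not use went with the label in the summed counts. Cdh22 (chr2:164953045-165076940) stood at 570 CPM in type 2 nuclei and at 13.5 in type 1 nuclei. Kit (chr5:75735576-75817404) was at 651 and 694 in the 2 types and at 74.1 in the remaining barcodes, and Tfap2a, a transcription factor of cerebellar GABAergic cells, was at 90.8, 93.6 and 9.80. Both markers are thus shared by the types and high against the tissue. The vesicular GABA transporter Slc32a1 was at 40.7 CPM and the calcium buffer Pvalb at 268. The type 1 markers Ptprk, a receptor phosphatase, and Lypd6, a modulator of nicotinic receptors, were at 126 and 11.2 CPM in type 2 nuclei against 1292 and 229 in type 1 nuclei. The connexin gene Gjd2 was at 3.53 CPM in type 2 nuclei.

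**Figure D1:**
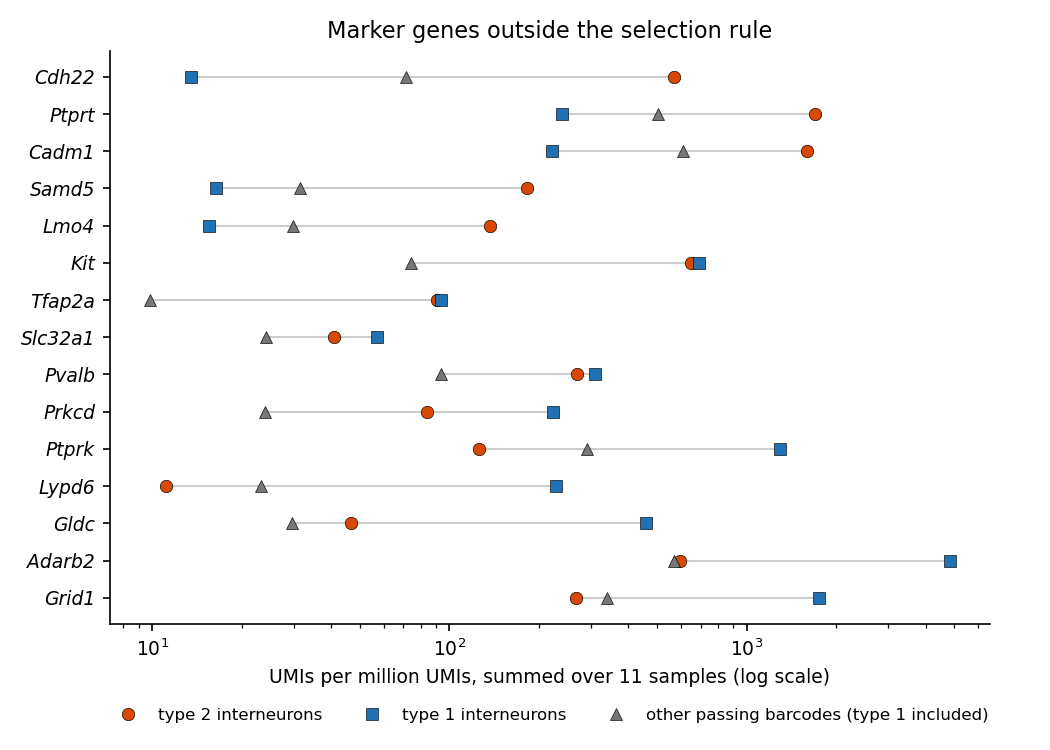
Summed levels of 15 genes outside the selection rule, in CPM on a log axis, for type 2 nuclei (circles), type 1 nuclei (squares) and other passing barcodes (triangles). Cdh22, Ptprt, Cadm1, Samd5 and Lmo4 are highest in type 2, Kit and Tfap2a lie at nearly the same place in both types, and Ptprk, Lypd6, Gldc, Adarb2 and Grid1 are highest in type 1.

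The markers did not hold in every nucleus. Kit and Cdh22 together had a median of 1344 CPM per nucleus, and 72 nuclei held none of either. With a limit of 500 CPM, chosen after these values were seen, 763 nuclei (78.7%) lay at or above it and 207 (21.3%) below, of which 29 lay at 400 to 500, while 20 of the nuclei above lay at 500 to 600. The nuclei below the limit held less Tfap2a (33.7 against 115 CPM), Pvalb (100 against 339), and Prkcd, a kinase of cerebellar neurons (16.2 against 113), whereas Gad2 was at 312 and 288. They also held more Nrg1, a growth factor (2369 against 89.8), Cntn5, a contactin (1755 against 55.9), Grm5, a metabotropic glutamate receptor (1270 against 277), and Pcdh15, a protocadherin (1491 against 147). A Hox UMI, which marks brainstem or cord origin, was found in 42 of them (20.3%) and in 45 (5.90%) of the nuclei above the limit, against 6.22% of type 1 nuclei and 9.49% of all passing barcodes. Their median was 6416 UMIs against 4490, and 34 (16.4%) were called doublets against 33 (4.33%). For these 207 nuclei Kit and Cdh22 went against the label, and they are named only by the rule.

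**Figure D2:**
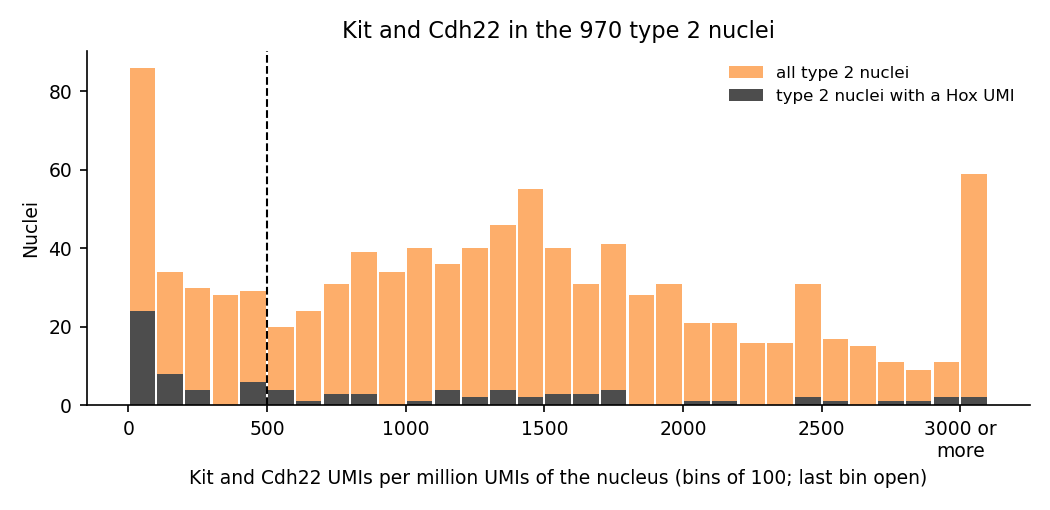
Number of type 2 nuclei by the UMIs of Kit and Cdh22 together as CPM of the nucleus, in bins of 100 with the last bin open. The dark bars are nuclei with a Hox UMI and the dashed line is the limit of 500: 763 nuclei lie at or right of it and 207 left of it, with 86 in the lowest bin, which holds the 72 at 0.

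The share of nuclei below the limit differed between libraries. The fl EAE samples had 22.4%, 17.1%, 23.7% and 16.7%, and the NestinCre EAE samples 17.6%, 25.6%, 32.2% and 35.2%, in the order of their numbers. In fl naive 2 and 3 it was 19.6% and 5.77%, and in NestinCre naive 2 it was 15.9%. These nuclei gave 12.8% (fl naive 3) to 48.4% (NestinCre EAE 4) of a sample's type 2 UMIs. In NestinCre naive 2 the deepest nucleus held 41328 UMIs, 9.85% of the sample, with no Kit or Cdh22 UMI. It carried 937 of the 1063 UMIs of 6 Purkinje cell markers (88.1%). In fl naive 3 the deepest nucleus, also without Kit or Cdh22, carried 331 of 510 such UMIs (64.9%). Neither nucleus was called a doublet. The results below are therefore given also for the 763 nuclei and without the deepest nucleus of each sample where these change them.

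The genes that set type 2 apart from type 1 are given with no test, since the rule chose both types. Among 4276 genes with a mean of at least 50 CPM in either type, 133 (3.11%) were at least 2-fold higher in type 2 and higher in all 11 samples, and 116 (2.71%) were at least 2-fold lower and lower in all 11. After Cdh22, the highest ratios belonged to Samd5, with 184 ± 35.9 against 15.9 ± 9.07 CPM (SD, n = 11), to the activin-type receptor Acvr1c, with 61.6 ± 15.1 against 6.40 ± 2.62, and to the transcription regulator Lmo4, with 139 ± 28.4 against 15.6 ± 4.89. Lower in the order of ratios, but abundant, were the receptor phosphatase Ptprt with 1712 ± 211 against 230 ± 52.1 and the adhesion protein Cadm1 with 1608 ± 246 against 221 ± 34.7. In the other direction, the exchange factor Arhgef26 was at 12.3 ± 7.36 against 317 ± 38.7, the glycine-cleaving enzyme Gldc at 47.5 ± 15.5 against 457 ± 31.4, and Adarb2, a relative of the RNA-editing deaminases, at 589 ± 139 against 4837 ± 409. The lowest of the 11 type 2 values of Samd5, Lmo4, Ptprt and Cadm1 lay above the highest type 1 value. The counts of 133 and 116 were made with all type 2 nuclei and were not repeated for the 763. Among the 133, Kcnmb2 summed to 83.7 CPM in all type 2 nuclei, 18.0 in the 763 and 15.2 in type 1. For 6330411D24Rik the values were 117, 19.3 and 24.9. Samd5 and Lmo4 kept the contrast, at 185 and 175 in the 763 against 16.4 and 15.5 in type 1.

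The contrast was densest among glutamate receptors. Of 21 glutamate receptor genes at this level, 5 were at least 2-fold higher in type 2 in every sample and 4 lower. The NMDA receptor subunit Grin2b (chr6:135690231-136150548) stood at 1087 ± 120 against 240 ± 39.3 CPM, and Grin3a, another NMDA subunit, at 897 against 213. The delta receptor Grid1 stood at 256 against 1766, and the metabotropic receptors Grm8 and Grm3 at 210 against 1019 and 94.1 against 448. The kainate subunit Grik4, the metabotropic receptor Grm5 and the AMPA subunit Gria1 were the other 3 that were higher in type 2. Of these, Gria1 was carried by the nuclei low in Kit and Cdh22: it stood at 30.2 CPM in the 763 nuclei, below the 62.1 of type 1, and at 490 in the other 207. Grm5 stood at 277 in the 763 nuclei against 133 in type 1.

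Of 27 ion channel genes, 4 were higher in type 2 and 1 was lower. The Kv3 channel gene Kcnc1 was at 317 and the Kv4 channel gene Kcnd3 at 994 CPM in the summed type 2 nuclei, against 108 and 408 in type 1, and both were higher still in the 763 nuclei, at 382 and 1250. Kcnh7 stood at 251 against 78.2, but at 86.1 in the 763 nuclei, close to type 1. Scn3a, the last of the 4, stood at 101 against 41.9, and at 73.6 in the 763 nuclei. Kcnip4, an accessory subunit of Kv4 channels, was lower in type 2, at 2532 against 7439. Of 26 synaptic adhesion genes 4 were higher and 1 lower. Among the 4, Cntn5 fell from 562 CPM in all type 2 nuclei to 55.9 in the 763, below the 173 of type 1. Opcml fell from 1078 to 605, against 438 in type 1. Of 10 GABA-A and glycine receptor genes the GABA-A subunit Gabrd was higher in type 2, and no gene of GABA synthesis and release passed the 2-fold limit among 8.

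The genotype comparison in EAE asked whether type 2 interneurons of NestinCre/+Il12rb2fl/fl mice, designed to lose Il12rb2, differ from those of Il12rb2fl/fl littermates. Of 6679 genes tested, 0 had an adjusted p under 0.05 (0.0%; edgeR quasi-likelihood test, Benjamini-Hochberg), while 305 (4.57%) had an unadjusted p under 0.05, 162 higher (2.43%) and 143 lower (2.14%) in NestinCre EAE. DESeq2 called 1 gene. In simulated counts with the library sizes of this design, the edgeR test called 76.9% of genes changed 2-fold and 100% of those changed 4-fold, beside 12 false calls. There 91 and 86 of 6372 tested genes were changed at once, which eases the adjusted threshold, and no run effect was simulated. These rates do not carry over to counts in which fewer genes change, so that 0 calls do not exclude changes of these sizes. The genes that follow are given as values and not as changes.

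H2-D1 (chr17:35481691-35486475), a heavy chain of MHC class I, which presents peptides to cytotoxic T cells, stood at 30.1, 26.7, 21.9 and 21.2 CPM in fl EAE and at 51.2, 46.5, 48.2 and 66.7 in NestinCre EAE. The groups did not overlap, but fl naive 3 (45.6) and NestinCre naive 2 (52.4) lay at the level of NestinCre EAE, and fl naive 2 stood at 23.4. The means were 25.0 ± 4.20 and 53.1 ± 9.23, with a log2 fold change of 1.17 ± 0.25 (edgeR adjusted p = 0.949) and 1.19 in the 763 nuclei. Its partner chain B2m (chr2:121977957-121983594) stood at 7.53, 0, 19.7 and 6.63 in fl EAE and at 35.1, 34.9, 24.1 and 38.4 in NestinCre EAE. A second heavy chain, H2-K1 (chr17:34214987-34219321), stood at 0, 0, 6.56 and 1.33 in fl EAE and at 16.2, 29.0, 12.0 and 29.4 in NestinCre EAE. Neither B2m nor H2-K1 had enough counts for the genotype test, and in both the groups did not overlap. The naive samples held 2.13, 12.3 and 2.38 CPM of B2m and 0, 1.75 and 0 of H2-K1.

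The promoters of these 3 chains are shown because all are known targets of interferon signalling and each holds a pattern of the kind that interferon regulatory factors bind. The sequences are from RefSeq (GRCm38.p6) and run from 250 bases before to 50 bases after the start of the gene, with the match in capitals. H2-D1 lies at chr17:35262844-35263143 (plus strand), H2-K1 at chr17:34000298-34000597 (minus strand) and B2m at chr2:122147437-122147736 (plus strand).
H2-D1: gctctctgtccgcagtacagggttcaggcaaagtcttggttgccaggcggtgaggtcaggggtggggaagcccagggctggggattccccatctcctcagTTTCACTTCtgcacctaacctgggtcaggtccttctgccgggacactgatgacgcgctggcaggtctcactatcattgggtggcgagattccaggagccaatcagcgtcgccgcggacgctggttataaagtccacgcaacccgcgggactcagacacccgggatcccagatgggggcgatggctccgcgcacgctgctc
H2-K1: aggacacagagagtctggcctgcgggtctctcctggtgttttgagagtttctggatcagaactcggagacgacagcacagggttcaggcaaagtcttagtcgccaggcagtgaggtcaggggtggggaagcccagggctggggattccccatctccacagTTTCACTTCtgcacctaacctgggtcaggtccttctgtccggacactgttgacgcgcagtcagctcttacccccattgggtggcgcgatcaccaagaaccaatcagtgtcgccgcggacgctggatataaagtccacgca
B2m: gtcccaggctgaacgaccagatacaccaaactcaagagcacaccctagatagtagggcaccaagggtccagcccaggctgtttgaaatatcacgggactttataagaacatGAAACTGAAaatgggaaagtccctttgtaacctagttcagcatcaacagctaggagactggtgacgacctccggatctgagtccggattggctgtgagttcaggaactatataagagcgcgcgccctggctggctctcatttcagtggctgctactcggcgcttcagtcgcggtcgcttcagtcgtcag
In H2-D1 and H2-K1 the match to TTTCNNTTC starts 150 and 90 bases before the gene start. B2m held no such match, and in it the pattern GAAANNGAA, searched for that reason, starts 139 bases before the start. Searched on both strands, TTTCNNTTC was found in 2469 of 32851 promoters (7.52%) and GAAANNGAA in 2812 (8.56%). The patterns were counted apart, and a promoter may hold both. A match describes the letters only.

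Other interferon-related genes were sparse in type 2 nuclei. The lists of MHC class I genes, interferon-induced GTPases, STAT and IRF regulators and antiviral genes held 72 genes together, of which 71 were in the files, 67 had a UMI and 7 passed the expression filter. All 7 had positive log2 fold changes, with a median of 0.40 against 0.01 over all tested genes. An unadjusted p under 0.05 was found for 3 of them, H2-D1 and Stat3 included, and for 4.57% of all tested genes. A gene can pass the filter through the group where it is high alone, so that these numbers are a description. Among list genes with at least 10 UMIs in the 8 EAE samples, those higher in every NestinCre EAE sample than in every fl EAE sample, as were 1.56% of all 13082 genes with as many UMIs (1.5% were lower), included H2-K1, H2-D1, B2m, Ifit3, an antiviral RNA-binding protein, Parp14, an ADP-ribosyltransferase, and Iigp1 and Irgm1, GTPases that attack the vacuoles of intracellular parasites. Iigp1 stood at 0, 0, 0 and 1.33 CPM in fl EAE and at 16.2, 8.71, 9.03 and 10.2 in NestinCre EAE. Irgm1 stood at 0, 0, 0 and 1.33 and at 29.7, 8.71, 6.02 and 5.65. H2-K1, Ifit3, Parp14, Iigp1 and Irgm1 held 4, 2, 2, 1 and 1 UMIs in fl EAE and 46, 9, 14, 21 and 21 in NestinCre EAE, so that they reached 10 UMIs only with the group where they are high, and nothing is read from how many such genes there were. The groups of Stat3, a transcription factor of cytokine signalling, overlapped, with 20.1, 34.7, 30.6 and 23.9 in fl EAE and 91.7, 55.2, 24.1 and 32.8 in NestinCre EAE (log2 fold change 0.86 ± 0.35, edgeR adjusted p = 0.969).

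**Figure D3:**
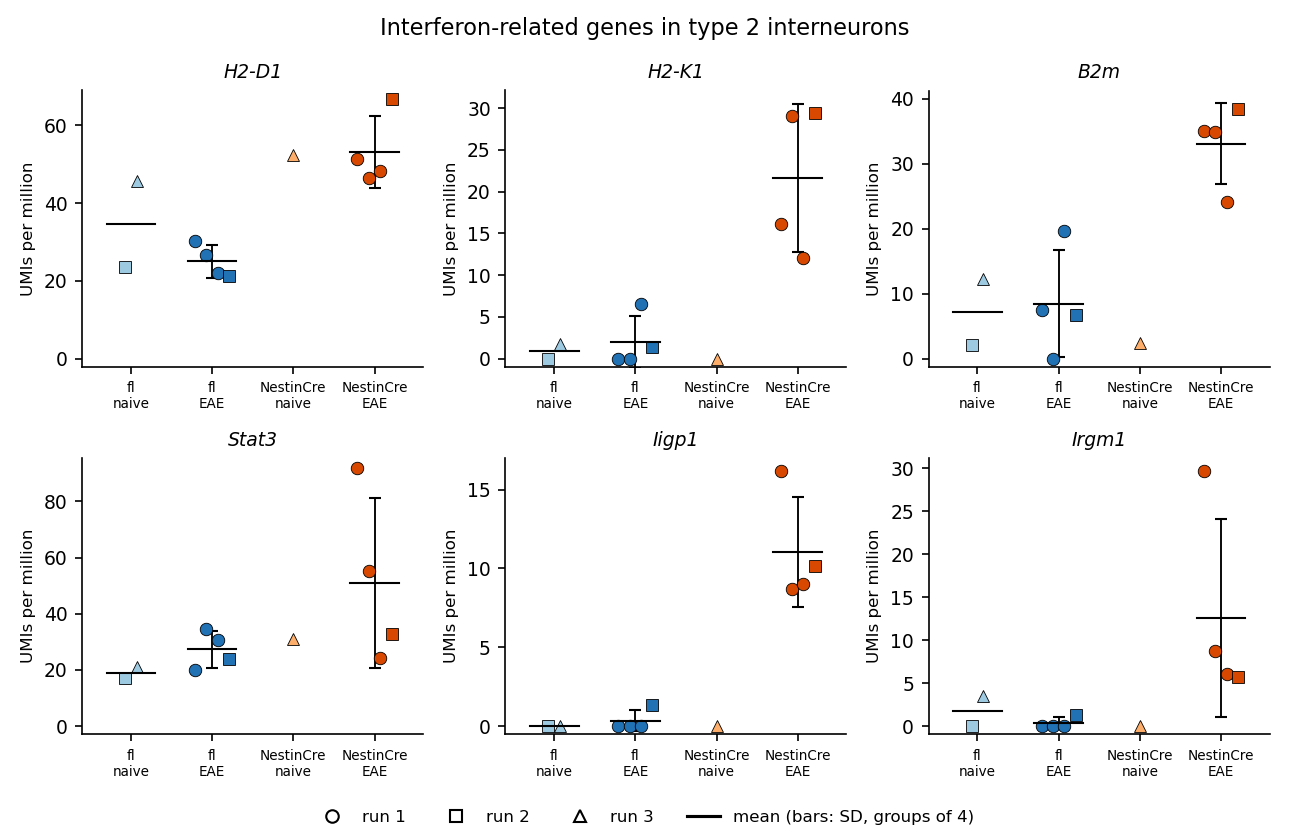
CPM of 6 interferon-related genes in type 2 nuclei, each point a sample, with runs by shape, lines at group means and bars of 1 SD for the groups of 4. The NestinCre EAE samples lie above the fl EAE samples in each panel but Stat3, where they overlap; in H2-D1 fl naive 3 and NestinCre naive 2 lie at the level of NestinCre EAE.

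Summed over 17 MHC class I genes, fl EAE 1 to 4 stood at 85.3, 69.3, 101 and 57.0 CPM and NestinCre EAE 1 to 4 at 208, 163, 166 and 209, while the naive samples stood at 57.5, 114 and 107. The 14 GTPases together stood at 0, 0, 13.1 and 5.31 in fl EAE and at 124, 52.3, 24.1 and 38.4 in NestinCre EAE. These sums did not overlap between the genotypes, and neither did they in the 763 nuclei for MHC class I, at 57.5 to 126 against 137 to 223. For the GTPases the 763 nuclei overlapped, at 0 to 19.9 against 15.8 to 137. Antiviral genes overlapped too, at 57.7 to 140 against 117 to 195, as did the regulators, at 192 to 289 against 262 to 510.

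In NestinCre EAE, MHC class I genes and GTPases had higher mean sums in the other passing barcodes than in type 2 nuclei. In the other passing barcodes of the same libraries, type 1 nuclei included, the MHC class I genes summed to 101 ± 25.4 CPM in fl EAE and 418 ± 137 in NestinCre EAE, and the GTPases to 15.1 ± 18.0 and 233 ± 88.3. Type 1 nuclei had MHC class I sums of 65.3 to 86.1 and 161 to 295, which overlap those of type 2 within each genotype. Markers of immune cells were summed in type 2 nuclei. Among 8 microglia markers the sum was 128 to 247 CPM in fl EAE and 198 to 261 in NestinCre EAE, and among 6 markers of infiltrating phagocytes it was 2.65 to 19.7 and 19.2 to 43.2, with Ms4a7 at 0. The 6 T and NK cell markers summed to 0 to 10.0 and 0 to 17.4, with Cd3e, Cd3g and Trbc2 at 0. The part of RNA from other cells in the type 2 levels was not tested.

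The other genes with the smallest p in the genotype comparison were not interferon genes. Pom121, a nuclear pore protein, stood at 22.6, 26.7, 15.3 and 18.6 CPM in fl EAE and at 43.2, 55.2, 42.1 and 42.9 in NestinCre EAE (log2 fold change 1.17 ± 0.26), with naive samples between at 29.8 to 38.1. Bcl9l, a cofactor of Wnt signalling, stood at 8.75 to 14.6 against 27.0 to 30.1 (1.23 ± 0.31), Sidt1, a membrane protein of the SID-1 family, at 42.5 to 66.7 against 78.2 to 105 (0.78 ± 0.20), and Rcor1, a corepressor of neuronal genes, at 75.6 to 92.9 against 43.6 to 54.2 (-0.73 ± 0.19). These 4 genes were chosen by their p in the same comparison, and that their groups did not overlap is a description. Aldh1l2, a mitochondrial folate enzyme, was lower by -0.90 ± 0.22 and Klhl33 by -0.79 ± 0.20, while the actin-binding protein Dbn1 was higher by 1.00 ± 0.26. Ipmk, an inositol phosphate kinase, was higher by 1.27 ± 0.33, which fell to 0.72 without the deepest nucleus of each sample and to 0.41 in the 763 nuclei. The adjusted p of all 8 was 0.969.

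No gene of GABA signalling passed the test between the genotypes. Of 11 genes of GABA synthesis and release, 8 could be tested and 0 had an unadjusted p under 0.05, where 4.57% of all tested genes did. Their median log2 fold change was -0.01. Gphn, the scaffold of inhibitory synapses, stood at 952 ± 62.8 and 1043 ± 42.8 CPM. All 12 tested GABA-A and glycine receptor genes missed p under 0.05, with a median of 0.01. Among the most abundant was Gabrb2, at 604 ± 44.8 and 543 ± 92.9 CPM.

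Of 22 tested glutamate receptor genes, 15 had positive and 7 negative log2 fold changes, with a median of 0.16, and 0 had an unadjusted p under 0.05. Grin2b, high in type 2 against type 1, was the member whose groups did not overlap, where 0.973% of all tested genes lay wholly above fl EAE and 1.6% wholly below: fl EAE stood at 1117, 1176, 1056 and 1195 CPM and NestinCre EAE at 917, 988, 996 and 926. Its naive samples, at 1144, 1295 and 1141, lay with fl EAE. Grin2b was lower in the 207 nuclei low in Kit and Cdh22, at 750 against 1233 CPM in the other 763. Those 207 nuclei gave 19.2% to 34.2% of a sample's type 2 UMIs in fl EAE and 25.1% to 48.4% in NestinCre EAE. Their part in the Grin2b difference was not tested. Of 29 ion channel genes, 1 was higher and 1 lower at an unadjusted p under 0.05, where 2.43% of all tested genes were higher and 2.14% lower. Kcnip4 was at 2180 ± 679 and 2994 ± 535 (0.47 ± 0.20, edgeR adjusted p = 0.969), with overlap. Kcnip4 was the gene called when nuclei of 6000 or more UMIs were left out, and it was higher in the 207 nuclei low in Kit and Cdh22, at 4692 against 1616 in the other 763.

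Of 26 tested synaptic adhesion genes, 0 had an unadjusted p under 0.05, and the median was 0.10. Over all tested genes, 4.57% had such a p. Nrxn3, a presynaptic neurexin and the most abundant, stood at 16135 ± 1371 and 14654 ± 1527 CPM. Among 23 neuronal genes that the study's text names, a list chosen by the study on these samples and therefore not independent evidence, 18 were tested and 1 had an unadjusted p under 0.05. This was Erbb4, the neuregulin receptor, which did not overlap between the groups, at 746, 699, 669 and 732 in fl EAE and 585, 662, 560 and 364 in NestinCre EAE (-0.41 ± 0.16, edgeR adjusted p = 0.969); fl naive 3 and NestinCre naive 2, at 498 and 455, lay below fl EAE too. The text also names 9 inflammatory genes, again chosen by the study on these samples and not independent evidence. Of these, the complement gene C4b held 2 UMIs in fl EAE and 13 in NestinCre EAE, and H2-D1, B2m and H2-K1 are described above. Of 9 tested heat shock genes 7 had negative fold changes, with a median of -0.13, and 0 had an unadjusted p under 0.05. Of 5 tested glucocorticoid-responsive genes the metal-binding protein Mt1 had p under 0.05, with 71.7 ± 17.8 against 113 ± 44.9 CPM (0.66 ± 0.20, edgeR adjusted p = 0.969). Immediate early genes, markers of recent activity, were sparse, with 2 of 16 tested; the sum of all 16 ran from 103 to 203 in fl EAE and from 99.3 to 521 in NestinCre EAE.

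EAE was compared with the naive state in each genotype. In fl mice 1 of 9035 genes (0.0111%) was called, and 351 (3.88%) had an unadjusted p under 0.05, 1.97% higher and 1.91% lower in EAE. In the fit with a term for sequencing run, fl naive 3 sets the run 3 term, so that this comparison rests on fl naive 2. The called gene was Fgf1 (chr18:38971717-39077186), a fibroblast growth factor of neurons. Its level in fl naive 2 was 277 CPM, against 36.8 in fl naive 3, 35.7 in NestinCre naive 2, 53.3 to 85.3 in fl EAE and 51.2 to 78.4 in NestinCre EAE. Fgf1 was thus high in 1 naive library, where 54 of 102 nuclei held a UMI, and was lower in the other 2 naive libraries than in any EAE library. The fitted log2 difference of EAE and naive was -2.09 ± 0.30 (edgeR adjusted p = 0.0158), with adjusted p = 0.761 by DESeq2 and, without the run term, -1.22 with adjusted p = 0.924. Without fl EAE 4, the fl EAE sample of the same run, it was -1.78 with adjusted p = 0.640. In the same library Fgf1 was also the highest in type 1 nuclei, at 109 against at most 83.8 elsewhere, and in the other passing barcodes, at 169 against 77.8 to 99.9.

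The neighbour of Fgf1, Arhgap26 (chr18:39126097-39509337), a gene of a GTPase-activating protein, stood at 84.9 to 173 in EAE, 132 and 133 in fl naive and 257 in NestinCre naive, with a fl difference of -0.17 ± 0.40 (adjusted p = 0.998). In NestinCre naive 2, 86 of its 108 UMIs (79.6%) came from 1 nucleus, and the NestinCre difference of -0.99 became 0.51 without the deepest nuclei. A second identifier of the same symbol, ENSMUSG00000118193, which has no entry in the annotation used here, stood at 507 in fl naive 2 and at 105 to 236 in the other 10 samples (-1.45 ± 0.31, adjusted p = 0.648). This fl difference ran from -1.91 to -0.75 when samples were left out 1 at a time. Reads of the 2 entries may be split. Prkg1 (chr19:30541889-31742479), a cGMP-dependent kinase, stood at 238 to 849 in EAE, at 803 and 689 in fl naive and at 1851 in NestinCre naive, with a fl difference of -0.94 ± 0.55 (adjusted p = 0.998). In the 763 nuclei Fgf1 (-2.36), the second Arhgap26 identifier (-1.57) and Prkg1 (-2.06) were called in fl mice, as was Sorcs3, whose level in type 2 nuclei the rule itself limits. For Prkg1 the NestinCre difference of -2.29 became -0.38 without the deepest nuclei. Pax2, a transcription factor of GABAergic precursors, stood at 39.4 to 60.2 in fl EAE, 31.6 to 69.7 in NestinCre EAE and 83.4 to 107 in the 3 naive samples. The naive samples did not overlap with EAE, but Pax2 was chosen by its p in this comparison, so that this is a description. The fl difference was -1.49 ± 0.37 (edgeR adjusted p = 0.998). Another gene with a small p in fl mice was Zfp804b (-3.14 ± 0.57, adjusted p = 0.156), whose difference turned to 3.01 in the 763 nuclei. The others were Ift122, Dach1, Rmdn2, Elp6, Slc9a9 and Ahsa1, whose adjusted p ran from 0.819 to 0.998.

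In NestinCre mice 1 of 9035 genes (0.0111%) was called, and 360 (3.98%) had an unadjusted p under 0.05, 2.16% higher and 1.83% lower in EAE. It was Zfp804b (chr5:6819010-7394756), a zinc finger gene, with a log2 difference of -6.01 ± 0.92 (adjusted p = 0.0378). With the run term this contrast uses NestinCre naive 2 and, through runs 2 and 3, also fl naive 2 and fl naive 3, so that a fitted difference can depart from that of the printed levels. Without the run term the difference for Zfp804b was -1.23 (adjusted p = 0.736). Zfp804b stood at 367 CPM in NestinCre naive 2, at 71.2 to 275 in NestinCre EAE, at 377 and 36.8 in fl naive and at 34.5 to 252 in fl EAE. It was present in few nuclei: in NestinCre naive 2, 143 of its 154 UMIs (92.9%) came from 1 nucleus, and over all samples 82 of 970 nuclei held a UMI. It belonged to the nuclei low in Kit and Cdh22, with 483 CPM there and 16.4 in the other 763, in which the sign of the difference turned (5.72, adjusted p = 1.00). DESeq2 called 0 genes in either genotype. Of the other genes with the smallest p in NestinCre mice, Hs3st4, a heparan sulfate sulfotransferase, stood at 66.7 CPM in NestinCre naive 2 and at 99.8, 110, 138 and 263 in NestinCre EAE, with 100 and 194 in fl naive (2.58, adjusted p = 0.331, and 1.27 without the run term). Irf2bp2, a corepressor, stood at 11.9 against 56.6, 63.9, 51.2 and 35.0 CPM in NestinCre EAE, with 10.7 and 40.3 in fl naive (3.73, adjusted p = 0.736, and 2.03 without the run term). Dnajc12, a co-chaperone gene, Tiam2 and Ppp1r16b had adjusted p from 0.534 to 0.814.

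The neuronal lists held few genes with an unadjusted p under 0.05 between EAE and naive, where 3.88% of all genes in fl mice and 3.98% in NestinCre mice had one. In fl mice these were 1 of 8 GABA synthesis and release genes (Abat, the GABA-degrading transaminase, lower in EAE), 1 of 15 GABA-A and glycine receptor genes (Gabrd, higher), 2 of 23 glutamate receptor genes (lower in EAE, Grin1 among them), 0 of 33 ion channel genes and 0 of 26 synaptic adhesion genes. In NestinCre mice they were 0, 1 (Gabra4, higher), 1 (lower), 0 and 0 of the same lists. Of 9 tested immediate early genes 0 had an unadjusted p under 0.05 in either genotype, with list medians of 1.15 in fl and 2.27 in NestinCre mice against 0.01 and 0.02 over all genes.

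Interferon-related genes remained sparse in this comparison. Of 13 tested genes of the 4 lists, 0 had an unadjusted p under 0.05 in fl mice, with a median log2 difference of 0.23 against 0.01 over all genes. In NestinCre mice 3 had one, all higher in EAE, namely B2m, Irf9 and H2-K1, with a median of 1.56 against 0.02 and adjusted p of 1.00 for each. Here too a gene can pass the filter through the group where it is high alone. The counts and medians of these lists and of the immediate early genes are therefore a description. B2m held 1 UMI in NestinCre naive 2 and 1 in fl naive 2, and H2-K1 held 0 in each. Their fitted differences rest on these UMIs and are no bounds. For B2m the difference was 6.04 ± 1.98 in NestinCre mice and 1.91 ± 1.45 in fl mice. The difference between these differences was 4.13 ± 1.56 for B2m and 0.89 ± 0.50 for H2-D1, each with an edgeR adjusted p of 1.00. Across all 9035 genes, the test of that interaction called 0 (0.0%), with 360 (3.98%) under an unadjusted p of 0.05, 2.05% positive and 1.94% negative; DESeq2 called 0 as well. The NestinCre side of these comparisons has 1 naive library, whose spread is taken from the remaining samples, and the run term also brings in the fl naive libraries.

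Between the genotypes in naive mice 0 of 9035 genes were called (0.0%) and 409 (4.53%) had an unadjusted p under 0.05, 2.61% higher and 1.91% lower in NestinCre; DESeq2 called 0. With the run term this contrast is NestinCre naive 2 against fl naive 3, so 1 library against 1, with the spread taken from the other groups, and fl naive 2 does not enter it. Among the genes with the smallest p were Purkinje cell genes. Itpr1 (chr6:108190048-108528070), the calcium release channel of Purkinje cells, stood at 1713 CPM in NestinCre naive 2, 596 in fl naive 3, 145 in fl naive 2 and 128 to 168 in the 8 EAE samples (1.59 ± 0.26, adjusted p = 0.0927). Car8, which binds Itpr1, stood at 446, 135 and 19.2 in the same 3 samples and at 5.39 to 26.7 in EAE. NestinCre naive 2 and fl naive 3 are the libraries whose deepest nucleus held most Purkinje marker UMIs, and without the deepest nucleus of each sample the Itpr1 difference was -0.41 (edgeR adjusted p = 0.998).

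**Figure D4:**
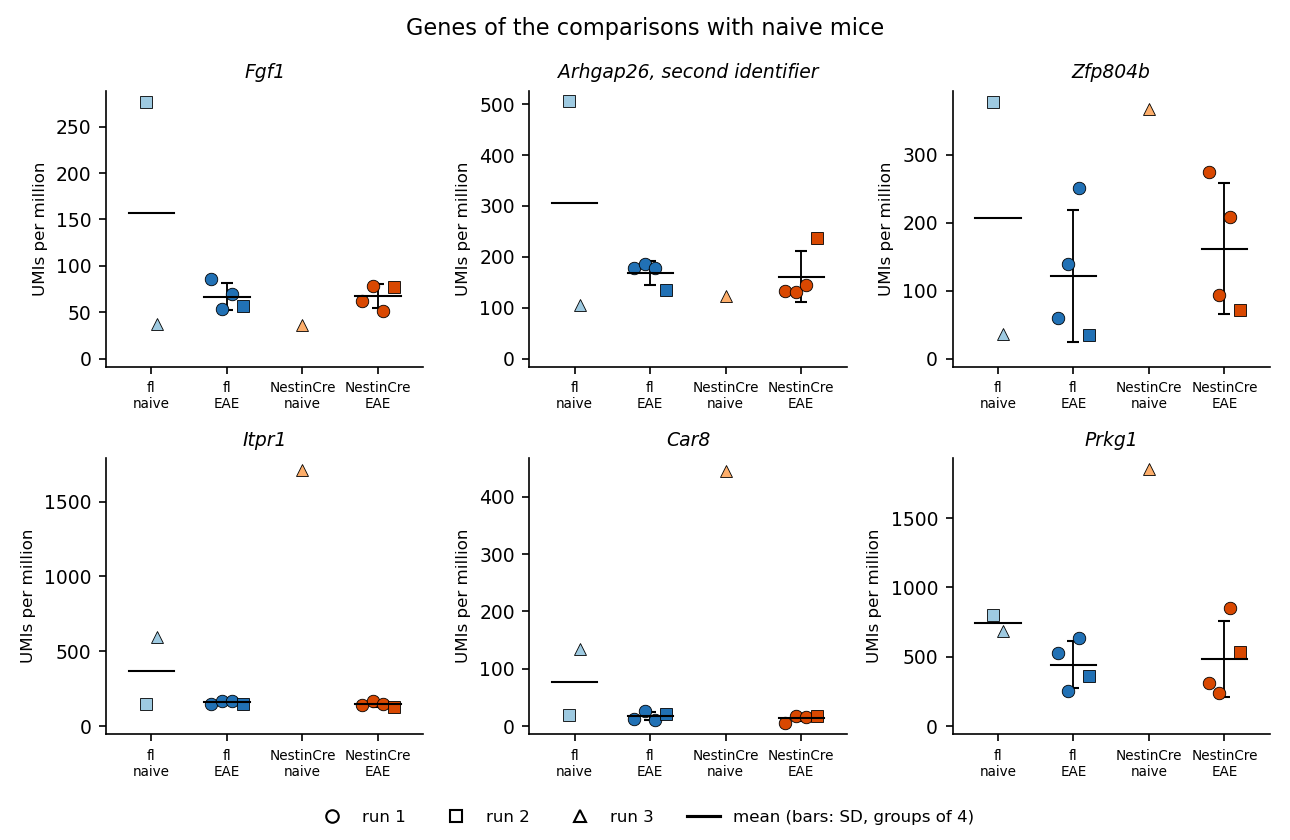
CPM of 6 genes in type 2 nuclei, each point a sample, with runs by shape, lines at group means and bars of 1 SD for the groups of 4. Fgf1 and the second Arhgap26 identifier are highest in fl naive 2, and Itpr1, Car8 and Prkg1 in NestinCre naive 2, while fl EAE and NestinCre EAE overlap in every panel.

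The last test asked whether the genotype difference in EAE differs between the 2 interneuron types. Of 9799 genes 0 were called (0.0%) and 577 (5.89%) had an unadjusted p under 0.05, 3.33% positive and 2.56% negative; DESeq2 called 0. H2-D1 differed by 0.22 ± 0.28 (edgeR adjusted p = 0.964), with type 1 means of 30.1 ± 3.92 in fl EAE and 56.3 ± 11.2 in NestinCre EAE. The smallest p belonged to Pcdh15 (1.29 ± 0.25, adjusted p = 0.253), at 442, 325, 516 and 342 in type 2 nuclei of fl EAE and 461, 378, 738 and 1309 in NestinCre EAE. Grm5 (1.40 ± 0.30) was at 597, 325, 507 and 464 and at 437, 349, 960 and 1035. For both genes NestinCre EAE 3 and 4 were high, the 2 libraries with the largest shares of nuclei low in Kit and Cdh22 (32.2% and 35.2%), and in the 763 nuclei the differences were 1.04 for Pcdh15 and 1.36 for Grm5 (adjusted p = 0.186 and 0.159). Without nuclei of 6000 or more UMIs they were 0.46 and 0.18 (adjusted p = 1.00 for both). In the 763 nuclei 7 genes were called, among them Zfhx3, Kcnt2 and Thsd7b. The limit on Kit and Cdh22 was applied to type 2 alone, so that the fit with the 763 nuclei set them against all type 1 nuclei. Of 11 tested immediate early genes 4 (Jund, Egr1, Nr4a1 and Btg2) had an unadjusted p under 0.05, all with a lower log2 genotype difference (NestinCre EAE minus fl EAE) in type 2 than in type 1 (edgeR adjusted p from 0.795 to 0.839), and the list's median was -0.42 against 0.01 over all genes. Of 33 ion channel genes 7 had an unadjusted p under 0.05, 5 positive and 2 negative, with a list median of 0.05, where 5.89% of all genes did. Of 23 glutamate receptor genes 2 were positive and 2 negative at this limit, of 26 synaptic adhesion genes 2 were positive and 1 negative, and of 15 GABA-A and glycine receptor genes 2 were positive (Gabrb1 and Gabrg3). None of 8 genes of GABA synthesis and release or of 10 heat shock genes passed it, and 1 of 10 glucocorticoid-responsive genes, 1 of the 12 tested interferon-related genes and 2 of 21 neuronal genes that the study names did, all positive.

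The share of type 2 interneurons among passing barcodes was 0.546%, 0.478%, 0.428% and 0.594% in fl EAE and 0.509%, 0.456%, 0.454% and 0.633% in NestinCre EAE. It was 0.507% and 0.617% in fl naive 2 and 3 and 0.425% in NestinCre naive 2. The groups overlapped throughout, and replicate 4, from run 2, was the highest of both EAE groups. The means of 0.511 ± 0.0733% (fl EAE) and 0.513 ± 0.0841% (NestinCre EAE; n = 4 each) gave p = 0.971 in an exact two-sided permutation test, in which the smallest possible p is 0.0286. Exact 95% intervals of single samples, which cover counting error only, spanned 0.436 to 0.674% in fl EAE 1 and 0.535 to 0.744% in NestinCre EAE 4. Among both interneuron types together, type 2 made up 24.5 ± 0.821% in fl EAE and 25.2 ± 2.22% in NestinCre EAE (exact permutation p = 0.714), so that about 3 type 1 nuclei were found for each type 2 nucleus. All 8 EAE samples against the 3 naive samples gave 0.512% and 0.516% (exact permutation p = 0.964, smallest possible 0.00606). The amount of cerebellum in a sample cannot be told apart from the first share.

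**Figure D5:**
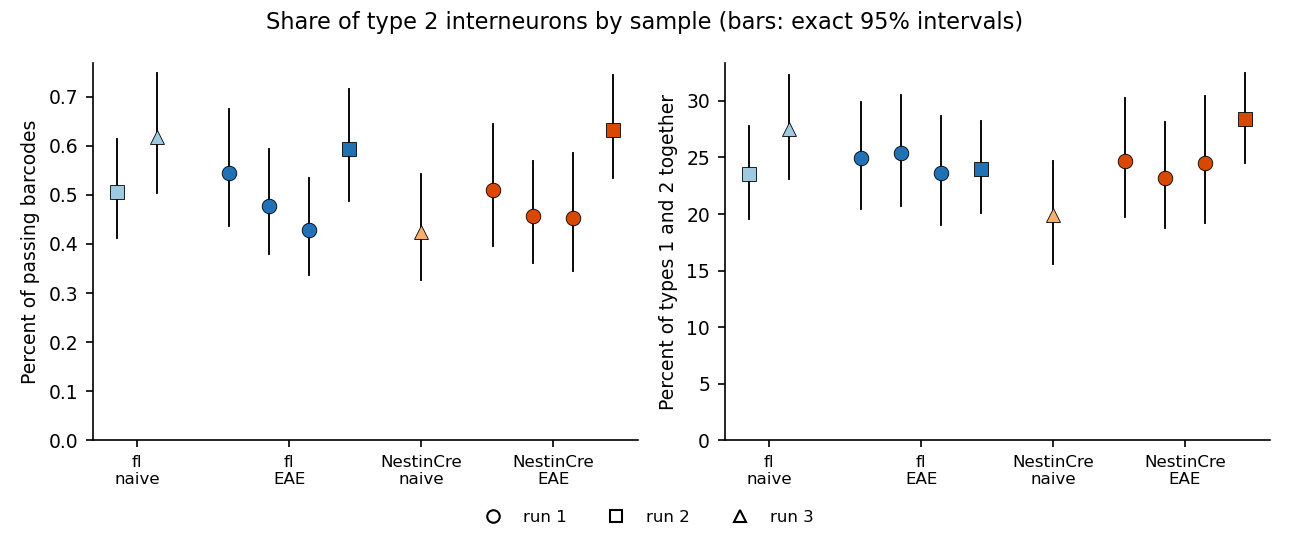
Type 2 interneurons as a percentage of passing barcodes (left) and of types 1 and 2 together (right), each point a sample with its exact 95% binomial interval, runs by shape. The samples of fl EAE and NestinCre EAE interleave in both panels, and NestinCre naive 2 is lowest in both panels, at 0.425% and 19.9%.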

How the data were processed

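The authors sequenced nuclei with a 10x 3' kit and, per the file headers, counted UMIs with Cell Ranger 7.0.0 (run 1) or 6.0.2 (runs 2 and 3) on GRCm39 with intronic reads. The deposited values are UMI counts per gene and barcode. Barcodes were selected by the rule given above, and counts were summed per sample. The 6 comparisons across genes used edgeR 4.0.16 (R 4.3.3, TMM, filterByExpr, quasi-likelihood test) with sequencing run as a term, and adjusted p-values are Benjamini-Hochberg over all genes tested, with a threshold of 0.05. Shares were compared by exact two-sided permutation tests (scipy 1.17.1) and carry exact Clopper-Pearson 95% intervals. DESeq2 1.42.0, no expression filter, stricter rules for nuclei, fits without the run term and fits without each sample were alternatives. Doublets were called by a score (scanpy 1.11.5, Scrublet, 0.8% per 1000 barcodes) and left out only in an alternative. The scripts were tested on simulated data. Named genes were the markers, Il12rb2 and its partner chain, called genes, the 10 with the smallest p where fewer than 10 were called, Fgf1, Arhgap26 and Prkg1, and up to 5 members of each list by mean level. Some genes that the rule names are not reported here, and counts over lists include them. Members and lists were chosen with earlier results of these data known. Library totals ran from 40761007 to 86063464 UMIs. Samples without a number in their title were numbered in accession order. Deviations of same-numbered EAE samples from their group means correlated at -0.074, 0.12, 0.12 and -0.072. These weak values do not settle whether the numbers pair samples, and the main tests did not pair them.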

Additional observations from a re-analysis of the deposited data

Results flagged for a closer look

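In groups of 4 samples, 5 values lay far from the other 3 by Dixon's ratio, of 108 group values examined, where chance marks about 1 in 20. NestinCre EAE 1 had the highest summed level of the STAT and IRF regulators, at 510 CPM. NestinCre EAE 2 was highest in Pom121, at 55.2, and in Klhl33, at 105. NestinCre EAE 4 was highest in the second Arhgap26 identifier, at 236. In fl EAE, replicate 4 was highest in Irf2bp2, at 43.8.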

How the results depend on the processing

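Of the gene values under the alternatives, 953 kept direction and side of the threshold, 65 passed it newly, 14 lost it and 28 turned sign; the cause was not tested. The genotype comparison in EAE gave 0 calls, but 1 with DESeq2, 37 with no expression filter and 1 without nuclei of 6000 or more UMIs. EAE against naive in fl mice gave 1 call, but 0 with DESeq2, without doublets, without nuclei with a Hox UMI or without the run term, 2 without nuclei of 6000 or more UMIs, 4 in the 763 nuclei and 10 with no filter; leaving out samples 1 at a time gave 0 (fl EAE 4 left out) to 2 (fl EAE 3, NestinCre EAE 2 or NestinCre EAE 4 left out). In NestinCre mice it gave 1, but 0 with DESeq2, without doublets, without deep nuclei, without Hox nuclei or in the 763 nuclei, 13 with no filter and 51 without the run term; leaving out samples gave 0 (fl EAE 2, NestinCre EAE 3 or NestinCre EAE 4 left out) to 1. The naive genotype comparison gave 0, but 28 with no filter, 1 without Hox nuclei, 7 without the run term and 0 to 2 by sample (2 without fl EAE 4 or NestinCre EAE 4). The interaction gave 0, but 21 with no filter. The interaction with interneuron type gave 0, but 73 with no filter, 2 with at least 4 Nxph1 UMIs, 7 in the 763 nuclei, and 0 to 27 by sample (27 without NestinCre EAE 2, 5 without fl EAE 1, 2 without NestinCre EAE 1, 1 without fl EAE 3). Fits that left out fl naive 2, fl naive 3 or NestinCre naive 2 could not be made where the contrast needs that sample.

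The share difference of NestinCre EAE and fl EAE, 0.0017 percentage points, became -0.0055 without doublets, -0.249 among barcodes outside the granule class, -0.0412 in the 763 nuclei, -0.0108 in run 1 alone, and -0.0383 to 0.0293 by sample. Among both types the difference of 0.72 became -0.67 when thinned to 1500 UMIs, -0.0079 without doublets and -0.338 to 1.38 by sample. It was -1.08 for the 763 nuclei with all type 1 nuclei. EAE against naive, at -0.0042, became 0.0257 when thinned, 0.107 in run 2 alone and -0.0499 to 0.0464 by sample. With a replicate block the genotype comparison again gave 0 calls (314 at an unadjusted p under 0.05), and the block share difference was 0.0017 (exact permutation p = 0.875, smallest 0.125).

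In the 763 nuclei, Zfp804b turned to log2 differences of 3.01 (fl) and 5.72 (NestinCre), Itpr1 to 0.035 (NestinCre), -0.32 (naive genotype) and 0.18 (interaction), and Zfand4 to -0.067 (naive). Without Hox nuclei, Itpr1 turned to 1.93, -2.34 and 2.19, Ttll5 to 0.22, -0.47 and 0.52 in the same 3 contrasts, Car8 to -1.58 and 1.31 and Arhgef33 to -3.09 and 2.16 in the last 2, and Zfp804b (-0.28), Zdhhc14 (-0.59), Zfand4 (-0.51) and Washc2 (-0.63) in the naive contrast. Without deep nuclei, Dach1 turned to 0.36 (fl), Hs3st4 to -0.33 (NestinCre) and -1.81 (interaction) and Ttll5 to -0.033 (naive). Without the deepest nucleus of each sample, Itpr1 turned to 0.23, -0.41 and 0.26. Arhgap26 (fl) ran from -0.63 to 0.50 by sample. The limits on Kit and Cdh22, the deepest nucleus and run 2 alone were chosen after seeing the data. In simulations of EAE against naive in fl mice 8.25% of 2-fold changes were called, against 76.9% in the genotype comparison in EAE. The cause was not tested. Both simulations changed many genes at once, so that neither rate carries over to counts in which fewer genes change.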
